A study of Homo sapiens with 6 samples.

Results

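Transcripts of 10 genes for making, breaking down and sensing prostaglandins were followed in LX-2 cells, an established human hepatic stellate cell line, with and without overexpression of fibroblast activation protein α (FAPα). The genes were chosen by symbol, as PLA2G4A, PTGS1, PTGS2, PTGES, PTGES2, PTGES3, PTGIS, HPGD, PTGER2 and PTGER4, and all 10 were found once each among the 60748 genes of the deposited table. The libraries formed 2 groups of 3. LX-2Vector cells carried the empty lentiviral vector, and LX-2FAP cells stably overexpressed FAPα from the same vector, in which a ubiquitin promoter drives the insert and EGFP and puromycin resistance are also encoded. Overexpressing clones were selected with puromycin, and whether each line is a single clone is not given in the sources used here. Cells of both groups were grown in DMEM with serum and cultured for 24 h, with no other treatment given in the labels. The comparison asks which transcripts differ once stellate cells express FAPα.

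Prostaglandins are made from arachidonic acid, which cytosolic phospholipase A2 (PLA2G4A) releases from membrane phospholipids. The cyclooxygenases PTGS1 (COX-1, usually constitutive) and PTGS2 (COX-2, induced by cytokines and growth factors) turn it into prostaglandin H2, from which terminal synthases make prostaglandin E2 or prostacyclin. Prostaglandin E2 acts on the EP receptors, of which EP2 (PTGER2) and EP4 (PTGER4) raise cAMP, and 15-hydroxyprostaglandin dehydrogenase (HPGD) starts its breakdown. In liver, prostanoids are known for effects on stellate cell contraction, matrix production and inflammation.

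The regions upstream of both cyclooxygenases and of both EP receptors are shown because each pair shares a function and its members can be set side by side. Each line gives the 250 bases before the RefSeq start (GRCh38.p14), 5′ to 3′ on the gene's strand, with position -1 next to the start. RefSeq listed 1 start for each of PTGS2, PTGER2 and PTGER4 and 2 for PTGS1, of which the one nearest to the GENCODE gene start is shown. The PTGER4 start lay 417 bases downstream of the GENCODE gene start at 40679498, so its window lies inside the gene as GENCODE gives it. The other 3 starts lay 3 to 7 bases from theirs. Capitals mark matches on either strand to a TATA box (TATAAA), a GC box (GGGCGG), a cAMP response element half-site (CGTCA), a κB motif (GGGACT, any 2 bases, then CC), an EGR1 motif (GCGGGGGCG) and an E-box (CACGTG).
PTGS1 (chr9:122370283-122370532, plus strand): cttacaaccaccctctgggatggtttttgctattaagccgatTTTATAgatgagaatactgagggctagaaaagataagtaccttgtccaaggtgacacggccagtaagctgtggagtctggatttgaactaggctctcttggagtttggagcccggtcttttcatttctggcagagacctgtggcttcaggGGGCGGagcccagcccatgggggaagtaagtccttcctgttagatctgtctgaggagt
PTGS2 (chr1:186680424-186680673, minus strand): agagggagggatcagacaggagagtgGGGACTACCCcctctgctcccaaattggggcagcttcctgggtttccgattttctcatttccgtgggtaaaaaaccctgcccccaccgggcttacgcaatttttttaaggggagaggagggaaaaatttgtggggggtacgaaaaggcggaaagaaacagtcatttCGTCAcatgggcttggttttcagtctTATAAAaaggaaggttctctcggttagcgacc
PTGER2 (chr14:52314062-52314311, plus strand): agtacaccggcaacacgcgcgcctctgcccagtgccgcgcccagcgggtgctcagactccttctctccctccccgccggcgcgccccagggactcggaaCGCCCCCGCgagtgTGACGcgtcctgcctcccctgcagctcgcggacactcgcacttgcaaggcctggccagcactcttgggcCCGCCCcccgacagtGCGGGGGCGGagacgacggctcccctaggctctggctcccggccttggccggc
PTGER4 (chr5:40679665-40679914, plus strand): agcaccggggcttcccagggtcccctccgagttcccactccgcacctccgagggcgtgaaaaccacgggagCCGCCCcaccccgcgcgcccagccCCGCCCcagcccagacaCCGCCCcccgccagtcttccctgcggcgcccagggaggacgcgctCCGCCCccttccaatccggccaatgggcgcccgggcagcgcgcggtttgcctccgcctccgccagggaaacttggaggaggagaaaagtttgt

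The PTGS2 region held a TATA box beginning at -32, a cAMP response element half-site at -58 and a κB motif at -224. The PTGS1 region held a GC box at -58 and a TATA box match far upstream, at -208. The PTGER2 region held 2 EGR1 motifs, at -151 and -53, the latter overlapping a GC box at -49, with another GC box at -68 and a half-site at -137. The PTGER4 region held GC boxes alone, 4 of them. Among 35116 listed promoters, the same 250-base window held a TATA box in 10.7%, a GC box in 42.6%, a half-site in 21.2%, a κB motif in 1.52%, an EGR1 motif in 4.72% and an E-box in 6.34%. GC content was 49.6% for PTGS1 and 50.4% for PTGS2 but 74.0% for PTGER2 and 72.8% for PTGER4, against a median of 58.0%. A letter match describes the sequence and is not evidence of binding.

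Total counts ran from 17355700 to 26352060 per library. In CPM, counts scaled to a common library size, FAP itself had a mean of 2.28 ± 0.379 in the LX-2Vector libraries, and LX-2FAP had 723.2 ± 112.3 (SD over the 3 libraries of a group). Of the stellate markers, VIM, COL1A1 and TIMP1 were abundant, with means of 1545, 306.4 and 188.3 CPM in LX-2Vector. COL3A1 had 41.7, PDGFRB 24.85, RGS5 9.79, ACTA2 3.82, HAND2 1.59 and COL1A2 1.17 CPM there. DES had at most 1 count in a library and LRAT none in any. The hepatocyte marker TTR also had no count, but the hepatocyte marker SERPINA1 had 13.3 CPM and the epithelial marker KRT8 165.9 CPM in LX-2Vector. On the first principal component LX-2FAP replicate 1 lay at 1.91 and the other LX-2FAP libraries at 17.01 and 25.4, against -20.7 to -11.6 for LX-2Vector, so values without that library are given where they changed a call, a sign or a value by over 1.5 times. Nothing in the labels says that libraries of a group came from separate cultures, so p-values measure the spread between these libraries, which may be technical. Fewer cells with a transcript and less transcript per cell cannot be told apart in RNA from whole cultures.

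None of the 10 prostaglandin genes passed the test between LX-2FAP and LX-2Vector at an adjusted p under 0.05 (edgeR quasi-likelihood test, Benjamini-Hochberg over 18275 tested genes), where 5.29% of all tested genes did. All 10 had enough counts to be tested. Prostacyclin synthase (PTGIS) and PTGS1 came nearest, both with lower values in LX-2FAP, and for the inducible cyclooxygenase PTGS2 and the EP4 receptor the replicate spread was larger than the difference. At an unadjusted p under 0.05 there were 3 genes (PTGIS and PTGS1 with lower and PTGES3 with higher values), that is 30.0% of the 10 against 22.2% of all tested genes. The DESeq2 Wald test also gave 3 at an unadjusted p under 0.05, where 2930 of the 18275 tested genes were. DESeq2 gave no adjusted p for 6 of the 10, PTGIS included, and called none of the other 4. The log2 fold change was below 0 for 9 of 10 genes, against 53.0% of all tested genes, with a median of -0.18 for the 10 and -0.01 for all. For PTGES2, PTGS2 and PTGER4 it was -0.007, -0.01 and -0.03, each smaller than its SE. Leaving out a single library turned the sign of these genes and of PTGES. Groups did not overlap for 2 of the 10, against 26.4% of all tested genes.

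**Figure D1:**
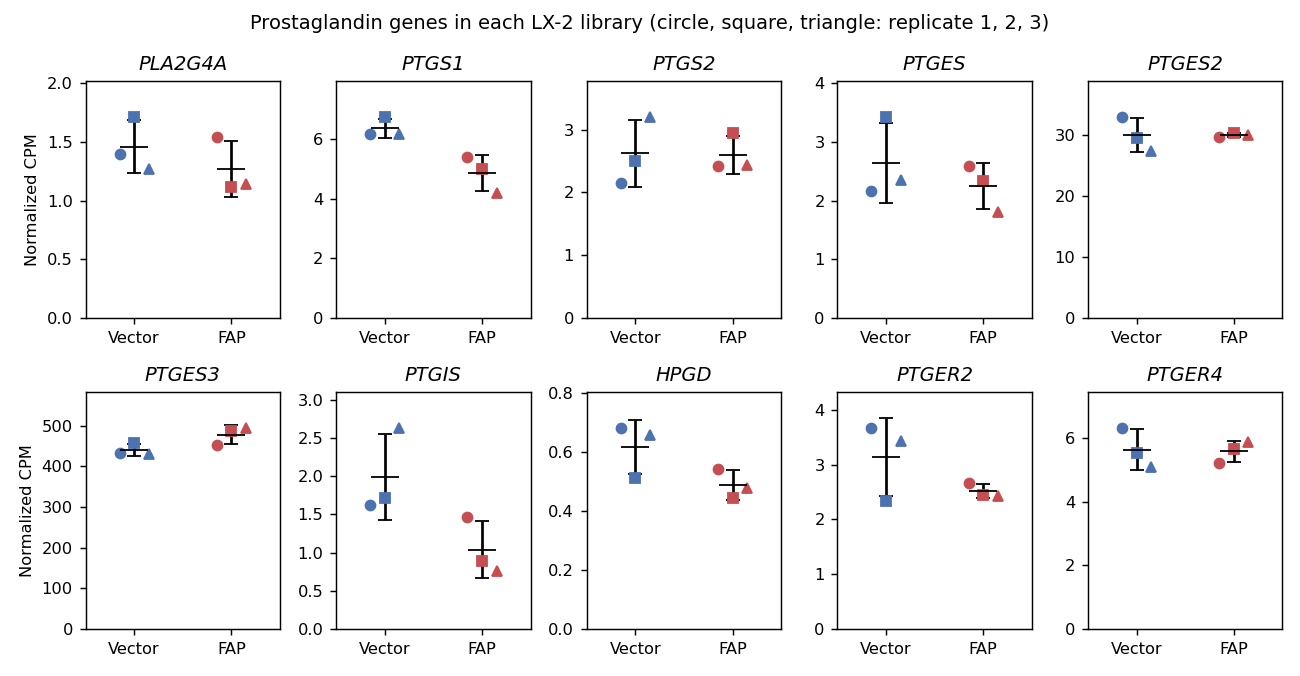
Normalized CPM of the 10 genes in each library, with each panel on its own axis from 0. Points are libraries, long bars are group means and error bars are SD (n = 3); LX-2FAP lies wholly below LX-2Vector for PTGS1 and PTGIS, and the groups overlap for the other 8 genes.

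PLA2G4A (ENSG00000116711, GRCh38 chromosome 1, 186828953 to 186988981, plus strand), which frees arachidonic acid, had 1.40, 1.71 and 1.27 CPM in LX-2Vector replicates 1 to 3 and 1.54, 1.11 and 1.15 CPM in LX-2FAP replicates 1 to 3. LX-2FAP replicate 1 lay inside the range of the controls and the other LX-2FAP libraries below it. Its log2 fold change was -0.17 (SE 0.22, edgeR adjusted p = 0.714), and its 95% interval ran from -0.64 to 0.30. Single libraries moved the value, to -0.35 without LX-2FAP replicate 1, to -0.09 without either of the other LX-2FAP libraries and to -0.05 without LX-2Vector replicate 2. Within LX-2Vector the PLA2G4A level was 0.511 ± 0.080 FPKM (fragments scaled to gene length and library size). That was below the secreted phospholipase PLA2G12A at 5.56 ± 0.343 FPKM and the calcium-independent cytosolic enzyme PLA2G4C at 0.922 ± 0.060 FPKM (SD, n = 3). It was also below PLA2G10 at 0.845 ± 0.038 FPKM, which had at most 16 counts in a library.

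PTGS1 (ENSG00000095303, chromosome 9, 122370530 to 122395703, plus strand) had 6.17, 6.72 and 6.16 CPM in LX-2Vector and 5.38, 5.00 and 4.20 CPM in LX-2FAP. All LX-2FAP libraries were below all LX-2Vector libraries, a separation in this direction that 13.4% of tested genes showed. The log2 fold change was -0.38 (SE 0.12; 95% interval -0.63 to -0.12), and it did not pass over all tested genes (unadjusted p = 0.00702, edgeR adjusted p = 0.0797). Without LX-2FAP replicate 1 PTGS1 was called lower, at -0.46 (edgeR adjusted p = 0.0384), and without LX-2FAP replicate 3 it stood at -0.28 (0.354). The fit without LX-2FAP replicate 1 called 1949 of 18794 tested genes, where the fit of all libraries called 967 of 18275.

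PTGS2 (ENSG00000073756, chromosome 1, 186671791 to 186680427, minus strand) had 2.16, 2.51 and 3.20 CPM in LX-2Vector and 2.42, 2.95 and 2.43 CPM in LX-2FAP. The LX-2FAP values fell inside the range of the controls. At -0.01 on the log2 scale (SE 0.18, edgeR adjusted p = 0.984), the 95% interval in fold units ran from 0.762 to 1.29 and left out a 1.5-fold difference in either direction. The PTGS2 value depended on single libraries in sign, from -0.15 without LX-2Vector replicate 1 to 0.17 without LX-2Vector replicate 3, and stood at 0.04 without LX-2FAP replicate 1. Its upstream region is the one printed with a TATA box close to the start.

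PTGS1 gave more reads per length than PTGS2 in all 6 libraries. Its share of the FPKM of the pair was 73.1%, 71.8% and 64.6% in LX-2Vector and 67.8%, 61.7% and 62.1% in LX-2FAP. The shares overlapped between the groups (69.8% ± 4.54 and 63.9% ± 3.45; SD, n = 3). The ratio of PTGS1 to PTGS2 in FPKM was 2.36 ± 0.470 in LX-2Vector and 1.78 ± 0.281 in LX-2FAP, again with overlap.

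**Figure D2:**
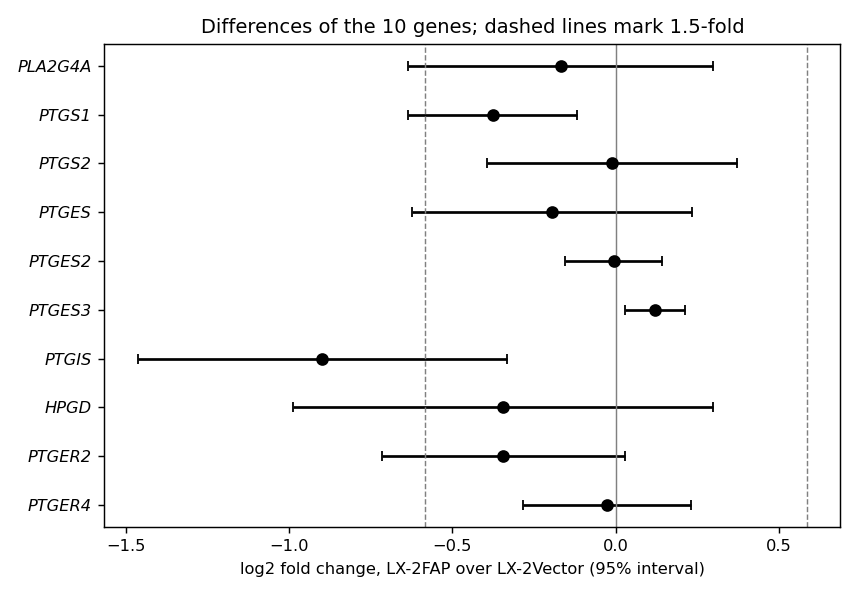
Log2 fold changes of the 10 genes between LX-2FAP and LX-2Vector from the edgeR fit, with bars for the 95% interval and dashed lines at 1.5-fold. The intervals of PTGS2, PTGES2, PTGES3 and PTGER4 lie within 1.5-fold, and that of PTGIS, from -1.46 to -0.33, is the only one that reaches beyond 2-fold.

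Of the prostaglandin E synthases, PTGES is the microsomal enzyme usually coupled to PTGS2, PTGES2 a Golgi-associated enzyme, and PTGES3 the cytosolic form, also known as p23, a cochaperone of HSP90. PTGES (ENSG00000148344, chromosome 9, 129738331 to 129753047, minus strand) had 2.16, 3.42 and 2.35 CPM in LX-2Vector and 2.59, 2.33 and 1.81 CPM in LX-2FAP. LX-2Vector replicate 2 was the highest of the 6 and LX-2FAP replicate 3 the lowest. PTGES was at -0.20 on the log2 scale (SE 0.20, edgeR adjusted p = 0.625), and it was 0.01 without LX-2Vector replicate 2 and -0.06 when LX-2FAP replicate 3 was left out. Leaving out replicate 1 of LX-2Vector gave -0.34, and leaving out replicate 1 of LX-2FAP gave -0.32.

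PTGES2 (ENSG00000148334, chromosome 9, 128120693 to 128128462, minus strand) had 32.97, 29.6 and 27.5 CPM in LX-2Vector and 29.7, 30.4 and 29.98 CPM in LX-2FAP. The LX-2FAP libraries lay within 0.7 CPM of each other, inside the wider control range. With a log2 fold change of -0.01 (SE 0.07) and an interval of 0.899 to 1.10 in fold units, a difference of 1.2-fold lay outside the interval. The sign was not fixed, at 0.07 without LX-2Vector replicate 1, 0.003 without LX-2FAP replicate 1 and -0.06 without LX-2Vector replicate 3.

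PTGES3 (ENSG00000110958, chromosome 12, 56663341 to 56688408, minus strand) had 433.99, 457.8 and 430.3 CPM in LX-2Vector and 452.7, 488.1 and 494.9 CPM in LX-2FAP. LX-2FAP replicates 2 and 3 were above every control, and LX-2FAP replicate 1 was below LX-2Vector replicate 2. The log2 fold change was 0.12 (SE 0.04; 95% interval 0.03 to 0.21), the only positive one of the 10, with an unadjusted p of 0.0139 and an edgeR adjusted p of 0.113. Without LX-2FAP replicate 1, in a fit that called 1949 of 18794 tested genes, it was called higher, at 0.16 (edgeR adjusted p = 0.0261). Without LX-2FAP replicate 3 it stood at 0.10 (edgeR adjusted p = 0.417). Of its 75-base words, 3.64% also occur in transcripts of 2 other genes, mainly the pseudogene PTGES3P1 (2.50%), and no other of the 10 genes shared any.

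PTGES3 held 88.4% to 91.0% of all counts of the 10 genes in a library. Per length it held 95.3% ± 0.273 of the FPKM of the 3 prostaglandin E synthases in LX-2Vector and 95.8% ± 0.297 in LX-2FAP, while PTGES held 1.02% ± 0.226 and 0.813% ± 0.174 (SD, n = 3). Any sum over these genes therefore mostly reports PTGES3.

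PTGIS (ENSG00000124212, chromosome 20, 49503874 to 49568146, minus strand), which makes prostacyclin, had the largest difference of the 10. Its counts were 43, 30 and 56 in LX-2Vector and 35, 16 and 16 in LX-2FAP, or 1.63, 1.71 and 2.63 CPM against 1.46, 0.890 and 0.764 CPM. All LX-2FAP libraries were below all LX-2Vector libraries, by a narrow margin for LX-2FAP replicate 1. The log2 fold change was -0.90 (SE 0.27; 95% interval -1.46 to -0.33), which did not pass over all tested genes (unadjusted p = 0.00392, edgeR adjusted p = 0.0594). Without LX-2FAP replicate 1, in a fit that called 1949 of 18794 tested genes, it was called lower at -1.26 (edgeR adjusted p = 0.0129). Without LX-2Vector replicate 3, the highest library, it stood at -0.64 (edgeR adjusted p = 0.218). It also missed the threshold with each of the other 4 libraries left out in turn, with edgeR adjusted p-values up to 0.277. With no filter on low counts it was called lower, at -0.90 (edgeR adjusted p = 0.00527), in a fit that called 1606 of 41175 tested genes. The replicates varied more than counting alone gives, with a chi-square per degree of freedom of 3.45 in LX-2Vector and 2.91 in LX-2FAP.

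Endothelial cells are a known source of prostacyclin, and a list of 5 endothelial markers was read beside PTGIS. Their summed level was 6.95 to 8.74 CPM in LX-2Vector and 5.23 to 6.87 CPM in LX-2FAP, and 3 of the 5 were tested. VWF was called lower (2.46 ± 0.603 against 1.17 ± 0.438 CPM, log2 fold change -1.06, edgeR adjusted p = 0.0268). STAB2 was at -0.84 (edgeR adjusted p = 0.168) and PECAM1 at 0.05 (0.878) on the same scale. CDH5 had at most 10 counts and LYVE1 at most 2 in a library, and no marker of the list was at 0 in all libraries. The stellate markers COL1A1, COL3A1 and PDGFRB were also called lower (log2 fold changes -0.40, -0.69 and -0.38), and VIM was called higher (0.13). The summed level of the 11 stellate markers was 2076 to 2190 CPM in LX-2Vector and 2134 to 2256 CPM in LX-2FAP. VIM alone had 1517 to 1583.5 CPM in LX-2Vector and 1677.3 to 1727.1 CPM in LX-2FAP, so that sum mostly reports VIM. The authors report STR typing of their cell lines, with no contamination by another human line. The part of the endothelial and stellate markers in the PTGIS value was not tested.

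**Figure D3:**
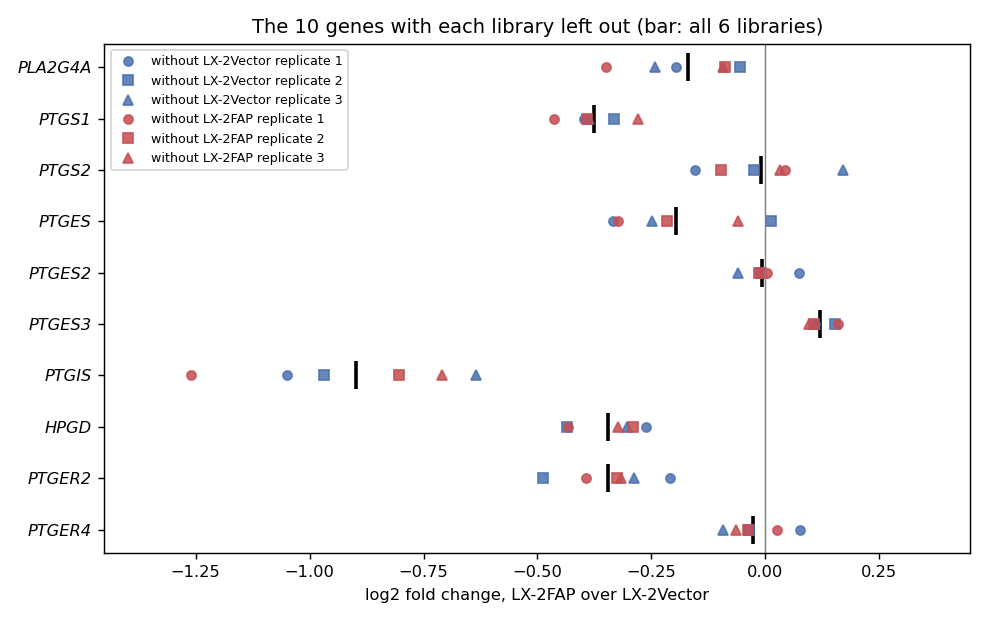
Log2 fold changes of the 10 genes with all 6 libraries (black bars) and with each library left out in turn (points). PTGIS spans -1.26 to -0.64 and stays below 0, and PTGS2, PTGES, PTGES2 and PTGER4 cross 0.

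HPGD (ENSG00000164120, chromosome 4, 174490177 to 174523154, minus strand), the enzyme that inactivates prostaglandin E2, was at the edge of detection. It had 18, 9 and 14 counts in LX-2Vector and 13, 8 and 10 counts in LX-2FAP. The pooled level was 0.628 CPM in LX-2Vector (exact 95% Poisson interval 0.451 to 0.853, counting error only) and 0.493 CPM in LX-2FAP (0.335 to 0.700). These intervals overlap, and no difference could be detected with so few reads (log2 fold change -0.35, SE 0.30, edgeR adjusted p = 0.585). The ratio of PTGES to HPGD in FPKM was 13.1 ± 5.60 in LX-2Vector and 13.5 ± 2.16 in LX-2FAP, a difference smaller than the replicate SD.

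PTGER2 (ENSG00000125384, chromosome 14, 52314305 to 52328606, plus strand), the EP2 receptor, had 3.67, 2.34 and 3.43 CPM in LX-2Vector and 2.67, 2.45 and 2.43 CPM in LX-2FAP. LX-2Vector replicate 2 was the lowest of all 6 libraries, and the LX-2FAP libraries were close together between it and the other controls. The log2 fold change was -0.34 (SE 0.18; 95% interval -0.72 to 0.03, edgeR adjusted p = 0.263), and it ran from -0.49 without LX-2Vector replicate 2 (edgeR adjusted p = 0.0953) to -0.21 without LX-2Vector replicate 1 (0.595). PTGER4 (ENSG00000171522, chromosome 5, 40679498 to 40693735, plus strand), the EP4 receptor, had 6.32, 5.53 and 5.08 CPM in LX-2Vector and 5.21, 5.67 and 5.87 CPM in LX-2FAP. The LX-2FAP values fell inside the control range, at -0.03 on the log2 scale (SE 0.12, edgeR adjusted p = 0.927) and with an interval of 0.822 to 1.17 in fold units. The sign turned when replicate 1 of LX-2Vector (0.08) or of LX-2FAP (0.03) was left out. Of the FPKM of the 4 EP receptors, PTGER4 held 50.6% ± 3.81 in LX-2Vector and 55.7% ± 1.25 in LX-2FAP, PTGER2 held 40.2% ± 6.45 and 36.2% ± 3.42, and PTGER1 and PTGER3 held the rest, with at most 8 and 9 counts in a library.

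Levels of the 10 genes were compared per length within LX-2Vector. PTGES3 was highest, at 130.7 ± 4.78 FPKM, followed by PTGES2 at 4.97 ± 0.437 FPKM. PTGER4, PTGES, PTGER2 and PTGS1 came next, with means from 1.60 to 1.11 FPKM, and each overlapped its neighbour in that order. PLA2G4A at 0.511, PTGS2 at 0.482 and PTGIS at 0.360 FPKM also overlapped as neighbours, and HPGD, at 0.112 ± 0.016 FPKM, was lowest and apart from PTGIS. The gene length behind the deposited PTGES2 value was 6084 bases, while its merged exons in GENCODE release 29 span 3039 bases. On the latter length the PTGES2 mean was 9.96 FPKM, and the ranks of all 10 genes stayed as they were.

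Set beside the other prostanoid receptors, the EP receptors were not the highest. The prostaglandin F receptor PTGFR led in LX-2Vector, at 4.09 ± 0.283 FPKM, apart from the prostacyclin receptor PTGIR at 1.62 ± 0.136 FPKM, which overlapped PTGER4. The thromboxane receptor TBXA2R had 0.884 ± 0.143 FPKM. PTGDR and PTGDR2, the prostaglandin D2 receptors, had at most 5 and 7 counts in a library. Between the groups the fitted log2 difference was -0.10 for PTGFR (edgeR adjusted p = 0.472) and -0.16 for PTGIR (0.455). PTGFR stood at -0.06 without LX-2FAP replicate 1. Besides PTGER2 and PTGER4 the list held 8 genes, including the receptor regulator PTGFRN. Of these 8, 4 were tested, PTGFRN among them, and none was called or had an unadjusted p under 0.05.

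**Figure D4:**
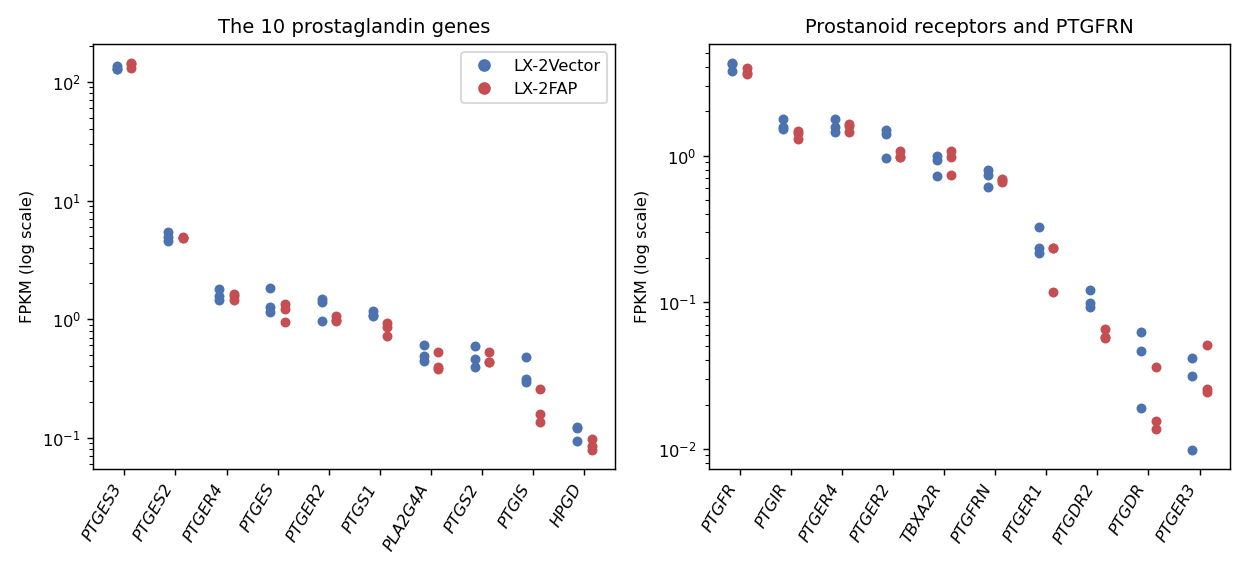
FPKM on a log scale of the 10 genes (left) and of prostanoid receptor genes with the receptor regulator PTGFRN (right), ordered by their mean in LX-2Vector, with 1 point per library. PTGES3 lies far above the other 9 genes, and PTGFR above the other receptors.

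The wider pathway, with cAMP-responsive genes and regulators that bind PTGS2 mRNA, was read from lists of 75 symbols, of which 73 were in the table and 51 were tested. Of the 51, 3 were called, a share near the 5.29% of all tested genes. All 3 were lower and none higher, where 2.73% and 2.57% of all tested genes were. The median log2 fold change of the 51 was -0.05. In the list of 13 phospholipases and enzymes of arachidonate supply, 10 were tested and 2 were called, the desaturases FADS2 and FADS1, which act in the synthesis of arachidonic acid from linoleic acid. FADS2 (ENSG00000134824, chromosome 11, 61792980 to 61867354) had 436.8, 394.7 and 405.6 CPM in LX-2Vector and 342.5, 263.5 and 284.8 CPM in LX-2FAP, and fell by 0.47 on the log2 scale (SE 0.07, edgeR adjusted p = 0.00411). FADS1 (ENSG00000149485, chromosome 11, 61799625 to 61829318) had 434.7, 427.1 and 427.0 CPM and 394.96, 354.6 and 362.3 CPM, and fell by 0.21 (SE 0.04, edgeR adjusted p = 0.0144). All LX-2FAP libraries were below all LX-2Vector libraries for both. Both genes lie on opposite strands and share 4.79% of the FADS1 exon bases, so a small part of their reads cannot be assigned to either without strand.

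In the same list the elongase ELOVL5 and ACSL4, which attaches coenzyme A to arachidonate, had log2 fold changes of 0.10 and 0.11, and PLA2G6, a calcium-independent phospholipase, of -0.36. Each had an unadjusted p under 0.05 and none passed (edgeR adjusted p = 0.152, 0.125 and 0.160). Without LX-2FAP replicate 2, FADS1 was not called (-0.18, edgeR adjusted p = 0.0817) and FADS2 was, and the same held without LX-2FAP replicate 3, where FADS1 was at -0.19 (0.121). On log2(FPKM + 1), limma-trend called neither, with FADS2 at -0.49 and FADS1 at -0.24 (limma adjusted p = 0.112 for both).

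In the lipoxygenase and leukotriene branch 7 of 14 genes were tested and LTB4R, a receptor of leukotriene B4, was called. It had 28.9, 31.1 and 33.2 CPM in LX-2Vector and 24.9, 22.2 and 23.8 CPM in LX-2FAP and fell by 0.39 on the log2 scale (SE 0.07, edgeR adjusted p = 0.00931). LTB4R shares 7.95% of its exon bases with the neighbouring receptor gene LTB4R2 on the same strand. Leaving out LX-2FAP replicate 2 (-0.34, edgeR adjusted p = 0.0521) or LX-2FAP replicate 3 (-0.39, 0.0748) ended the call, as did limma-trend on log2(FPKM + 1), at -0.36 (limma adjusted p = 0.112). ALOX5, the 5-lipoxygenase, had at most 23 counts in a library and ALOX15 at most 8.

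No gene was called among the other terminal synthases (5 tested of 7 found), the genes of breakdown and transport (5 of 6) and the cytochrome P450 and epoxide hydrolase branch (3 of 8). The smallest edgeR adjusted p in these lists was 0.229, 0.568 and 0.0987, the last for EPHX1, microsomal epoxide hydrolase, at -0.21. Without LX-2FAP replicate 1, in the fit that called 1949 genes, the synthase AKR1C3 was called lower at -0.45 (edgeR adjusted p = 0.0233). With all libraries AKR1C3, which makes prostaglandin F2α, was at -0.27 (edgeR adjusted p = 0.229). AKR1C genes are close copies of each other, and whether AKR1C3 reads could come from the others was not checked. All 10 cAMP-responsive genes, which EP2 and EP4 signals are known to reach, were tested and none was called. In that list PER1 (-0.29, edgeR adjusted p = 0.0787) and PDE4B (-0.26, 0.166) had an unadjusted p under 0.05. Both were called lower once LX-2FAP replicate 1 was left out (-0.39 and -0.37, edgeR adjusted p = 0.0140 and 0.0495), and PDE4B stood at -0.14 without LX-2FAP replicate 3 (0.581). The 7 regulators that bind PTGS2 mRNA, such as ELAVL1 (HuR) and ZFP36 (tristetraprolin), had log2 fold changes from -0.01 to 0.04, the narrowest range of these lists.

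**Figure D5:**
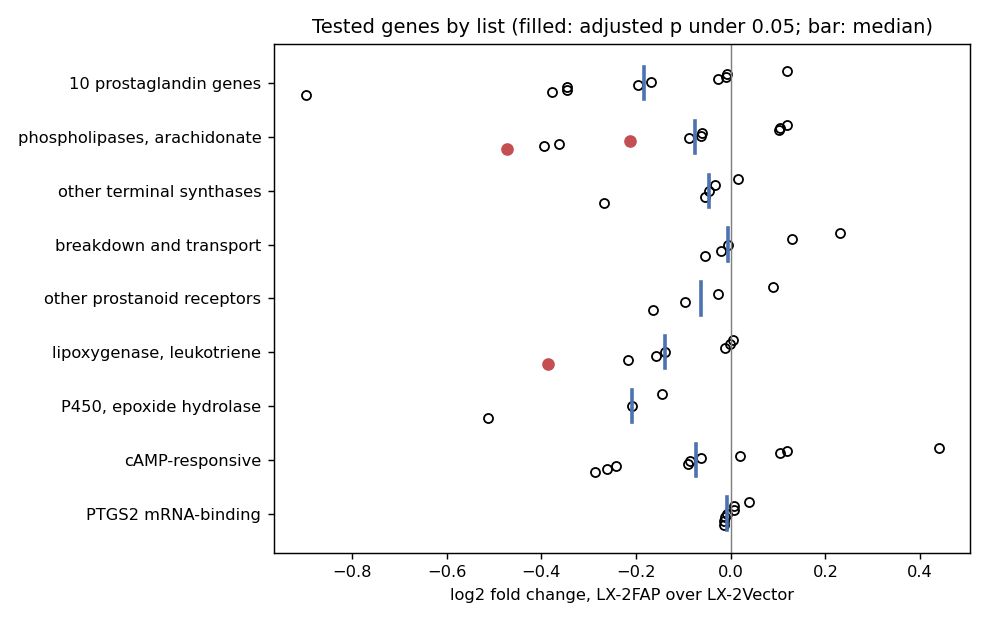
Log2 fold changes of the tested genes in each list, with filled points for genes at an edgeR adjusted p under 0.05 and a bar at each list's median. The 3 filled points are FADS2, FADS1 and LTB4R, and none lies among the 10 prostaglandin genes.

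The width of the intervals sets what these libraries could show for the 10 genes. The 95% interval lay within 1.2-fold for 2 genes (PTGES2 and PTGES3), within 1.5-fold for 4 and within 2-fold for 9, PTGIS being the exception. Of the 10 genes, 6 had a mean count under 100 per library. For PTGES, HPGD, PTGER2 and PLA2G4A the interval included both no difference and a 1.5-fold lower level.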

How the data were processed

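Reads from 6 LX-2 libraries were aligned to the genome by the authors with HISAT2 2.0.5 and counted per gene with featureCounts 1.5.0-p3. The deposited table holds whole-number counts, not normalized, and FPKM values that the authors computed from count and gene length. The submitters' processing notes name the build hg18; the annotation release and use of strand were not given in the sources used here. Coordinates are those of GENCODE release 29 (GRCh38), matched by Ensembl identifier. Ribosomal RNA depletion and poly(A) isolation are both named for the libraries.

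Counts were tested with the edgeR 4.0.16 quasi-likelihood test after TMM normalization and the default filter (minimum count 10, minimum total 15), with no covariate; standard errors were derived from the test statistic. All p-values are 2-sided. Fits with DESeq2 1.42.0 and limma 3.58.1 (on log2(FPKM + 1) and log2(FPKM + 0.1)), other normalizations and filters, a replicate block and fits with each library left out were alternatives. The edgeR script was tested on simulated data. CPM used TMM-scaled library sizes. Between replicates of a group the chi-square per degree of freedom was 2.05 to 4.88, above counting error.

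Named genes were FAP, the 10 members, and genes of lists (arachidonate pathway, cAMP-responsive genes, PTGS2 mRNA-binding regulators, cell type markers) where a list is described. Genes most like a called member were to be named, and no member was called. The members and lists were chosen with earlier results of these data known. GO and KEGG columns were not used here. Promoter sequences are from RefSeq (GRCh38.p14), in which 9 of the 10 genes matched.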

Additional observations from a re-analysis of the deposited data

How the results depend on the processing

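Of the 10 prostaglandin genes, 0 were called at an adjusted p under 0.05 with TMM, DESeq2 size factors, library size alone, at least 10 counts in every sample and limma-trend with either pseudocount. The DESeq2 Wald test also called 0, but only 4 of the 10 had an adjusted p there. With no filter on low counts 1 prostaglandin gene was called, 1 lower (PTGIS), where 1606 of 41175 tested genes were called in all. With each library left out in turn, prostaglandin genes called ran from 0 to 3, called higher from 0 to 1 and called lower from 0 to 2. Other pathway genes called ran from 1 to 6. All genes called ran from 26 of 18822 tested (without LX-2FAP replicate 3) to 1949 of 18794 (without LX-2FAP replicate 1). The 3 prostaglandin genes were called in the latter fit. Limma-trend on log2(FPKM + 1) and on log2(FPKM + 0.1) each called 2 genes in all and 0 other pathway genes. FADS1, FADS2 and LTB4R were thus not called (limma adjusted p 0.112 to 0.113). Each limma fit had 7 pathway genes at an unadjusted p under 0.05, where 3662 and 3638 of the 18275 tested genes were. The cause of the few limma calls was not tested. HPGD could not be tested with at least 10 counts required in every sample.

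Signs of log2 fold changes turned for 4 of the 10 genes. PTGES2 went to 0.0015 with the DESeq2 Wald test and 0.0004 with DESeq2 size factors. With single libraries left out PTGES2 ran from -0.0607 to 0.0735, PTGS2 from -0.155 to 0.171, PTGER4 from -0.093 to 0.0767 and PTGES from -0.335 to 0.0118, with none of these 4 called in any of the fits. Of 286 values of single genes with an adjusted p under these alternatives, FAP aside, 259 kept their direction and side of the threshold, and 7 more had no adjusted p.

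The replicate block left the count of prostaglandin genes called at 0 and gave 975 genes called in all and 3 other pathway genes. For libraries that share a number, the correlations of their deviations from the group means were -0.04, 0.04 and -0.01. Of the 3 LX-2Vector libraries, 0 matched its own number best. Total counts of replicates 1 to 3 were 26352060, 17355700 and 21070099 in LX-2Vector and 24196402, 18234410 and 21229282 in LX-2FAP, the same order. Whether libraries with the same number were prepared or sequenced together cannot be told from these values. The low counts of 6 of the 10 genes limit what this depth can show for them.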
